A study of Mus musculus with 17 samples.

Results

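The genes described here are the mouse factors that carry the ribosome through a round of protein synthesis: the initiation factors (eIFs), the elongation factors (eEFs) with the enzymes named after them, and the release factors. Members were all protein-coding genes with a symbol beginning Eif or Eef, together with Etf1, Gspt1 and Gspt2, without the eIF2 kinases (Eif2ak1 to Eif2ak4) and the eIF4E-binding proteins (Eif4ebp1 to Eif4ebp3). This rule, which used no measured value, gave 64 genes of the 48820 in the count table, of which 21760 are protein-coding. All 64 passed the low-count filter. They were sorted by role into 12 groups.

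In initiation, eIF2 bound to GTP brings the initiator tRNA to the small ribosomal subunit, and eIF2B recharges eIF2 with GTP. eIF3 is the large scaffold on that subunit, while eIF4E, eIF4G and eIF4A bind the mRNA cap and unwind the leader, and eIF1, eIF1A, eIF5 and eIF5B take part in choosing the start codon and joining the large subunit. During elongation eEF1A delivers aminoacyl-tRNAs, eEF1B recharges eEF1A, eEF2 moves the ribosome along the mRNA, and eIF5A helps it past stretches that stall. Etf1 (eRF1) recognises stop codons together with the GTPases Gspt1 or Gspt2 (eRF3). In skin, the rate of protein synthesis is known to differ between stem cells and their dividing offspring.

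The study sequenced RNA from sorted epidermal stem cell populations of C57BL/6 mice aged 3 months. Every animal carried an EGFP-CreERT2 cassette at Lrig1, Lgr6 or Lgr5, genes that mark the junctional zone above the hair bulge, the isthmus with parts of the interfollicular epidermis, and the lower bulge with the hair germ, respectively. All animals received 4-hydroxytamoxifen (4-OHT), which activates this Cre, so each cassette decided both which cells were sorted by GFP and in which cells recombination could occur. The control groups, labelled WT, were Pelo fl/+ and thus carried 1 floxed allele themselves; the mutant groups, labelled Pelo -/-, were Pelo fl/fl. Pelo encodes Pelota, a relative of Etf1 that rescues stalled ribosomes. Each library came from 1000 GFP+ cells. The 17 libraries form 6 groups: WT Lrig1 with 2, and Pelo -/- Lrig1, WT Lgr6, Pelo -/- Lgr6, WT Lgr5 and Pelo -/- Lgr5 with 3 each. The labels do not state whether replicates are separate mice, so p-values measure only the spread between these libraries.

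The targeted gene was read first, in CPM (counts scaled to the TMM-adjusted library size, per 1e6). The 2 WT Lrig1 libraries held 6.05 and 3.72 CPM of Pelo, and the 3 Pelo -/- Lrig1 libraries 3.81, 0.482 and 0.856. For Lgr6 the levels were 4.11, 5.39 and 2.02 CPM with WT and 3.10, 4.93 and 4.19 with Pelo -/-. For Lgr5 they were 17.4, 5.89 and 17.3 CPM with WT and 11.8, 23.6 and 15.1 with Pelo -/-. The groups overlapped in all 3 populations, with log2 fold changes of -1.49 (SE 0.83), 0.09 (SE 0.75) and 0.31 (SE 0.74) in Lrig1, Lgr6 and Lgr5 and an adjusted p of 1.0 each by edgeR's quasi-likelihood test with Benjamini-Hochberg adjustment. The sources used here do not say which exons the floxed allele removes, and counts summed over a gene can miss a deletion of part of it. Below, Pelo -/- stands for the libraries labelled Pelo -/-, and each direction drawn from them rests on that label.

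Total counts ran from 13333497 to 26827421 in the Lrig1 libraries, from 18338235 to 28098841 in Lgr6 and from 9647507 to 17219054 in Lgr5. The sort markers followed the labels for Lgr5 (275.5 to 569 CPM in the 6 Lgr5 libraries against 0.053 to 29.4 in the other 11). Lrig1 itself had 39.2 and 41.7 CPM in the WT libraries of that name, with 37.7, 7.41 and 11.6 in Pelo -/- Lrig1, against 39.3 to 59.95 in Lgr6 and 10.1 to 18.1 in Lgr5. Lgr6 was at 58.2 to 108.5 CPM in Lrig1, at 79.3 to 197 in Lgr6 and at 17.6 to 108 in Lgr5. Hence neither the Lrig1 nor the Lgr6 transcript set the Lrig1 and Lgr6 libraries apart from each other. WT Lgr5 replicate 3 stood apart from the rest: it had the fewest counts, and 25.4% of them fell in predicted genes of satellite-like sequence, against 0.237 to 2.83% in the Lrig1 and Lgr6 libraries.

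Where the transcripts of these genes begin matters for their own control, because mRNAs of the translation apparatus often start with a C followed by an unbroken run of C and T (the terminal oligopyrimidine pattern). For 48 of the 64 members RefSeq gives a start region on GRCm38.p6. The first set shows 30 bases, from 5 before the annotated start to 25 from it, for genes with such a run at or near the start and for the most abundant genes, which are read in detail below. Capitals mark the first C, at or after the annotated start, that is followed by at least 6 bases each C or T; stretches that begin before the start stay in lower case.
Eif3f (chr7:108934410-108934439, plus strand): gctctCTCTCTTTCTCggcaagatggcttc
Eif2s3x (chrX:94212627-94212656, minus strand): ttttcCTTTTCTCTCCgagcaagatggctg
Eif2s3y (chrY:1010590-1010619, plus strand): cagccaCTTCCTTCTTTCgtgagcaagatg
Eif3l (chr15:79075218-79075247, plus strand): cttcttccgCTCTCTCCCacgggcttctgg
Eif3k (chr7:28981864-28981893, minus strand): gcgctggtgctgaaagcgCCTTTCCCTTTg
Eef2 (chr10:81176626-81176655, plus strand): cgggcgttgacgtcagcggtCTCTTCCgcc
Eef1a1 (chr9:78481700-78481729, minus strand): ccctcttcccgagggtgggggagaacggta
Eif4a1 (chr11:69672399-69672428, minus strand): gtcacgtcgagttgcagagcgccggcaggc
Eif4a2 (chr16:23107463-23107492, plus strand): cccgtaggagcagggcggccgaggagcgcg

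A C followed by 4 bases of C or T exactly at the annotated start was found in 2 of the 48 members (4.17%), Eif3f and Eif2s3x, against 2.72% of 16425 genes with a start region. In Eef2, Eif3k and Eif3l the capitalised run lay further downstream, and Eif2s3x and its Y-linked copy Eif2s3y each had one within 2 bases of the start. A run within the first 50 bases was found in 17 of 48 members (35.4%) against 23.3% of all genes. For Eef1a1, Eif4a1 and Eif4a2 no such run began at or after the start within the 30 bases shown. In the windows of Eef1a1 and Eif3l an unbroken stretch of C and T crossed the annotated start, from all 5 bases before it through base 5 in Eef1a1 and base 3 in Eif3l; these stretches were not counted, since the search began at the start.

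A second set shows the heptamer CCGGAAG, or its reverse complement CTTCCGG, upstream of eIF3 subunit genes, because this scaffold is the group whose members moved together most often below. Capitals mark the match, read on the strand of the gene.
Eif3c (chr7:126566416-126566445, minus strand): attctttggtgCTTCCGGgaagtgacgccc
Eif3c (chr7:126566382-126566411, minus strand): aaccttttcctCTTCCGGcgtcgtgcctgt
Eif3d (chr15:77970876-77970905, minus strand): gctgtgacacaCTTCCGGttgtgtctcact
Eif3g (chr9:20898616-20898645, minus strand): cggccgcggcaCCGGAAGcctcttctactc
Eif3l (chr15:79075177-79075206, plus strand): gctgggcgggaCTTCCGGtccggccaagca
Eif3m (chr2:105017064-105017093, minus strand): ctgtggctgacCCGGAAGcggttgtgcgta

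Searched on both strands of the 300 bases from 250 before to 50 after the start, CCGGAAG was found in 16 of 48 members (33.3%) and in 13.4% of all 16425 genes. Among eIF3 genes only those shown had it, while Eif3k and Eif3f, also searched, had none. Outside eIF3 it was found in Eef1b2, Eif1ad, Eif1ax, Eif1b, Eif2b2, Eif2b4, Eif4e2, Eif4enif1, Eif5a, Gspt1 and Eif5a2, a member called lower below. The match was thus not particular to eIF3. The reverse complement CTTCCGG holds a short stretch of C and T and can lie next to other pyrimidines, as in the second Eif3c match. That match lay before the start, outside the run search. Both searches covered the 50 bases after the start, so they are not fully independent. A match is a description of the letters, not of a bound factor. The run within 50 bases and this heptamer were searched for after the data had been seen. The 16 members with the heptamer and the 32 without it had median log2 fold changes of 1.38 and 1.22 in WT Lrig1 against WT Lgr5, 1.66 and 1.12 in WT Lgr6, 1.03 and 1.04 in Pelo -/- Lrig1, and 1.14 and 1.04 in Pelo -/- Lgr6, each against Lgr5.

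Compared per kilobase of exon, Eef1a1 was the most abundant member in every population. It reached 2217 ± 295 CPM per kb (SD, n = 5) in Lrig1, 2651 ± 363 (SD, n = 6) in Lgr6 and 455.9 ± 219 (SD, n = 6) in Lgr5. Eef1b2, a subunit of the eEF1B exchange factor, came next in each, at 269 ± 23.1 (SD, n = 5), 321 ± 62.3 (SD, n = 6) and 149 ± 68.0 (SD, n = 6) CPM per kb. Eif3k and Eef2 followed, at 199 ± 50.3 and 185 ± 21.2 CPM per kb (SD, n = 5) in Lrig1 and at 226 ± 71.5 and 250.3 ± 105 (SD, n = 6) in Lgr6. Their ranges overlapped in both populations, so their order is not resolved. In Lgr5 cells the next places were held by Eif1, the start-codon fidelity factor, at 105 ± 36.1 CPM per kb, and Eif4a2, the less common form of the cap helicase in most tissues, at 75.4 ± 21.4, followed by Eif4g2 at 54.5 ± 18.7 (SD, n = 6 each). The lowest levels in all 3 populations belonged to Eef1a2, Eif4e1b, Gspt2 and Eef1akmt3. Eef1a2, the eEF1A form of muscle and neurons, stayed between 0.0966 and 0.898 CPM in the 11 Lrig1 and Lgr6 libraries and between 0.429 and 1.37 CPM in the 6 Lgr5 libraries.

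The comparisons between populations ask where along the follicle these transcripts are more abundant. In WT cells 29 members were higher and 0 lower in Lrig1 than in Lgr5 (adjusted p under 0.05), among 30405 genes of which 9.09% were called higher and 1.99% lower. In WT Lgr6 against WT Lgr5 34 were higher and 1 lower, with 10.6% of all genes called higher and 1.57% lower. The median log2 fold change over the 64 members was 1.25 and 1.44, against -0.99 and -0.49 over all genes tested. The all-gene values include many genes of low count, and medians among more abundant genes are given below. Both comparisons use the same 3 WT Lgr5 libraries, so they are not independent of each other. In the libraries labelled Pelo -/-, which share none with these, 22 members were higher and 0 lower in Lrig1 than in Lgr5 (5.77% of all genes higher, 2.08% lower). In Pelo -/- Lgr6 against Pelo -/- Lgr5 25 were higher and 0 lower (7.23% higher, 2.72% lower), with member medians of 1.10 and 1.08 against -0.64 and -0.61 over all genes.

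**Figure D1:**
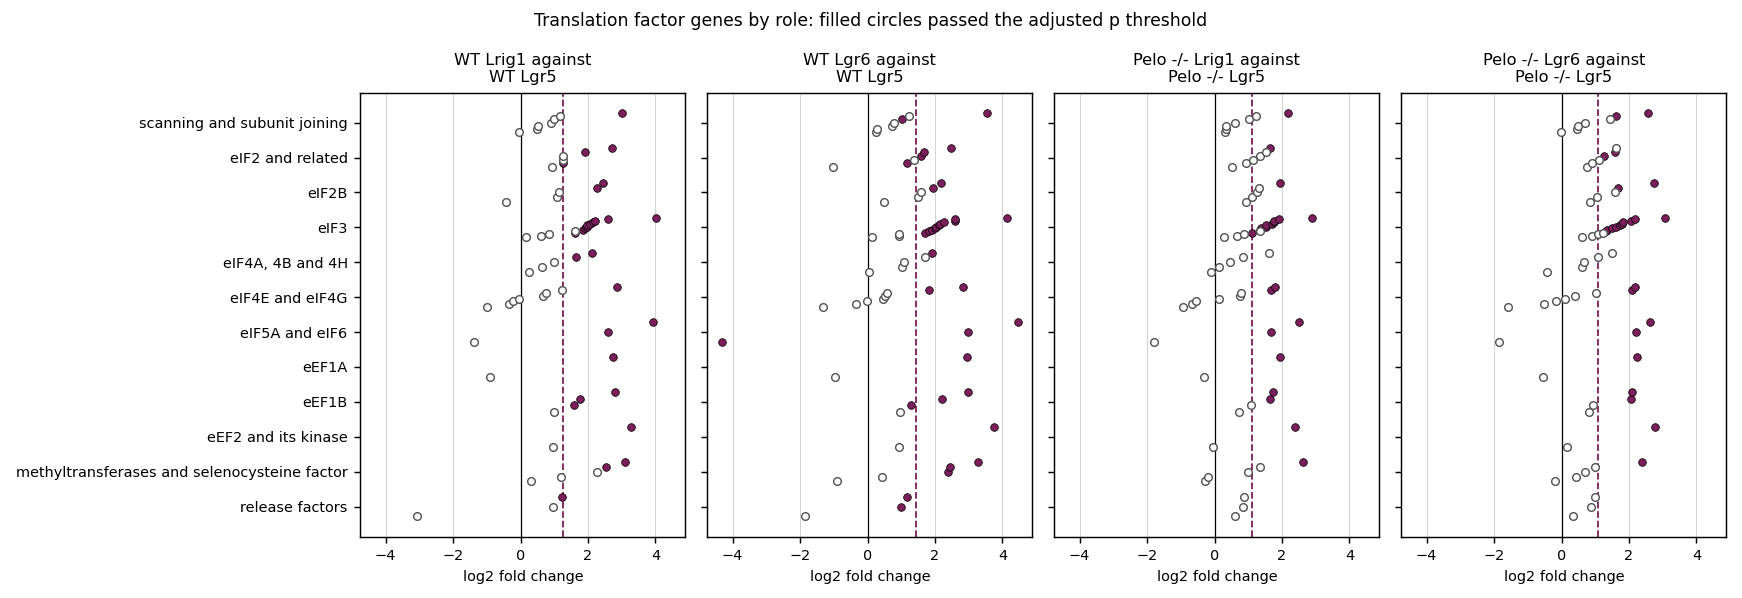
Log2 fold change (x axis) of each of the 64 members by role (y axis) in 4 panels, each comparing Lrig1 or Lgr6 with Lgr5 cells in WT or in libraries labelled Pelo -/-. Each circle is 1 gene, filled where the adjusted p is under 0.05, and the dashed line is the member median (1.25, 1.44, 1.10 and 1.08); the eIF3 row holds the most filled circles in each panel (10, 11, 10 and 10), all to the right of 0.

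These calls depend on abundance and on scaling. Members are abundant, and among the 11061 genes with a mean of at least 5 CPM, the share called higher was 36.7, 41.7, 28.3 and 35.0% of 60 members against 15.8, 17.5, 12.2 and 14.4% of all such genes, in the order of the comparisons above. Called lower there were 1, 1, 2 and 3 members (Eif4g3, Eif5a2 and, in Pelo -/- Lgr6, Eif4a2), against 12.8, 15.6, 10.8 and 14.0% of all such genes. That filter also changed the scaling: the member medians became 0.54, 0.83, 0.68 and 0.65, against -0.06, -0.04, -0.03 and -0.05 over all such genes. DESeq2-style RLE size factors gave member medians of 0.95, 1.01, 0.96 and 0.92. For 8, 10, 7 and 6 members the sign of the difference was not the same under every scaling, among them Eif3a, Eif4a2, Eif4e, Eif4g2 and Eif5 in several comparisons, and no direction is given for these. Leaving out a single library also moved the counts, from 29 to 14 at the lowest in WT Lrig1 (without WT Lrig1 replicate 2), from 35 to 17 in WT Lgr6 (without WT Lgr6 replicate 3), from 22 to 9 in Pelo -/- Lrig1 (without Pelo -/- Lgr5 replicate 2 or Pelo -/- Lrig1 replicate 1), and from 25 to 17 in Pelo -/- Lgr6. In WT Lgr6 the count was 22 without WT Lgr5 replicate 3 and 23 without WT Lgr5 replicate 1, and in Pelo -/- Lrig1 10 without Pelo -/- Lgr5 replicate 3 and 11 without Pelo -/- Lrig1 replicate 2. Eef1a1, Eef2, Eif5a, Eif6 and Eif3k were called in all 4 comparisons under every alternative that was run.

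Measured without any scaling between libraries, the 64 members together took 1.24 to 1.43% of all counts in Lrig1 libraries, 1.40 to 1.64% in Lgr6 and 0.579 to 0.968% in Lgr5, so the Lgr5 range lay below both others. The lowest share was that of WT Lgr5 replicate 3. Eef1a1 alone took 0.399 to 0.533% in Lrig1, 0.503 to 0.641% in Lgr6 and 0.092 to 0.211% in Lgr5. Much of the gap in the summed share thus came from 1 gene. The highest Lgr5 library, WT Lgr5 replicate 2, held 0.968% in all members and 0.142% in Eef1a1. The lowest Lrig1 library, WT Lrig1 replicate 2, held 1.24% and 0.399%, so the shares of the other members nearly met there. That remaining share was not compared over all libraries. In CPM, which does carry the TMM scaling, 31 of the 64 members (48.4%) had every one of the 11 Lrig1 and Lgr6 libraries above every one of the 6 Lgr5 libraries. This held for 7.54% of all genes. The TMM factors were 0.9909 to 1.898 in Lgr5, 0.7701 to 0.9643 in Lrig1 and 0.6886 to 0.9278 in Lgr6, which lowers CPM in Lgr5 relative to the others. How many members separate without that scaling was not counted. Among the 31, at least Eif2s3x, Eif2b5 and Etf1 do not, by the counts given below. The opposite separation held for 0 members and for 2.38% of all genes.

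Several other measures moved with the population. Satellite-like counts took 1.72 to 25.4% in Lgr5 against 0.237 to 2.83% in the other libraries. Mitochondrial counts spread more widely in Lgr5, at 3.69 to 15.3% against 4.66 to 7.68%, with similar medians of 6.665 and 6.51%. The summed level of 6 basal keratinocyte markers was 4580 to 12300 CPM in Lgr5, 17900 to 26800 in Lrig1 and 16900 to 28500 in Lgr6, and 4 of 6 were called higher in each of the 4 comparisons. The 5 suprabasal markers summed to 46.8 to 141 CPM in Lgr5, 3230 to 11700 in Lrig1 and 3670 to 10800 in Lgr6; Ivl, which encodes the cornified-envelope protein involucrin, was at 0 in every Pelo -/- Lgr5 library, which allows up to 0.161 to 0.212 CPM. Melanocyte markers summed to 53.1 to 309 CPM in Lgr5 against 12.1 to 34.1 in Lrig1 and 11.8 to 38.1 in Lgr6, and fibroblast markers to 34.5 to 66.8 against 2.08 to 8.43 and 1.38 to 20.8. Markers of Langerhans cells and macrophages summed to 42.2 to 144 CPM in Lgr5, 160 to 250 in Lrig1 and 143 to 428 in Lgr6, with 1 of 6 called higher in each comparison. That sum was carried by Epcam, also an epithelial gene (28.6 to 135.9 CPM in Lgr5, 81.2 to 218.5 elsewhere), and Cd74 (0.268 to 1.09 and 32.4 to 330.3). The list's median log2 fold change was below 0 in all 4 comparisons (-0.62, -0.17, -0.60 and -0.19). Endothelial, T cell and Merkel cell markers gave 0 calls, at up to 18.9, 45.6 and 3.05 CPM summed. The part of these differences in the results for the members was not tested, and in sorted bulk samples fewer cells of a type and less RNA per cell cannot be told apart.

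The elongation factors gave some of the largest differences. Eef1a1 was at 5989 and 5171 CPM in WT Lrig1, at 6210, 5488 and 7710 in WT Lgr6, and at 1012, 1022 and 484 in WT Lgr5. In the Pelo -/- libraries it was at 6516, 5330 and 4626 CPM in Lrig1, at 7126, 7331 and 5790 in Lgr6, and at 2128, 1240 and 932 in Lgr5. Every Lgr5 library was thus below every other library, also the highest of them, Pelo -/- Lgr5 replicate 1. The log2 fold changes against Lgr5 were 2.73 (SE 0.41, adjusted p = 5.55e-05) in WT Lrig1, 2.95 (SE 0.39, adjusted p = 1.16e-05) in WT Lgr6, 1.94 (SE 0.38, adjusted p = 0.00152) in Pelo -/- Lrig1 and 2.24 (SE 0.38, adjusted p = 0.000282) in Pelo -/- Lgr6, by edgeR's quasi-likelihood test with Benjamini-Hochberg adjustment, as are all adjusted p-values here unless another tool is named. Reads from processed pseudogenes of Eef1a1 may be counted with it or lost from it, since the sources used here do not say how shared reads were counted.

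Eef2, the translocase that moves the ribosome by a codon, was at 692 and 504 CPM in WT Lrig1, at 415, 1407 and 708 in WT Lgr6, and at 78.5, 71.2 and 36.9 in WT Lgr5. In Pelo -/- it was at 636, 598 and 643 CPM in Lrig1, at 603, 1014 and 845 in Lgr6, and at 134, 124 and 102 in Lgr5. The WT Lgr6 libraries spread widely, at 843 ± 510 CPM (SD, n = 3), yet the lowest of them was above the highest Lgr5 library. The log2 fold change was 3.27 (SE 0.45, adjusted p = 1.79e-05) in WT Lrig1, 3.76 (SE 0.44, adjusted p = 2.3e-06) in WT Lgr6, 2.38 (SE 0.41, adjusted p = 0.000426) in Pelo -/- Lrig1 and 2.78 (SE 0.42, adjusted p = 6.68e-05) in Pelo -/- Lgr6. Eef2k, the kinase that inactivates eEF2 by phosphorylation, was called in none of the 4. It was at 68.8 and 59.5 CPM in WT Lrig1, at 59.3, 72.0 and 56.0 in WT Lgr6 and at 41.9, 44.8 and 11.5 in WT Lgr5. In the Pelo -/- groups Eef2k was at 71.1, 63.6 and 70.2 CPM in Lrig1, 73.2, 84.7 and 80.4 in Lgr6 and 67.5, 71.3 and 75.2 in Lgr5. In TMM-scaled CPM, Pelo -/- Lgr5 thus lay among the other populations and WT Lgr5 below them.

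Of the 4 genes counted with the eEF1B exchange complex, 3, 3, 2 and 2 were called higher in WT Lrig1, WT Lgr6, Pelo -/- Lrig1 and Pelo -/- Lgr6. Over all genes the shares called higher were 9.09, 10.6, 5.77 and 7.23%, or 15.8, 17.5, 12.2 and 14.4% among genes of at least 5 CPM. In role groups this small, here and below, counts of 1 or 2 calls are not read as results about the role. Eef1d, a catalytic subunit, was at 234 and 232 CPM in WT Lrig1, 152, 323 and 315 in WT Lgr6 and 54.6, 32.4 and 13.0 in WT Lgr5. Libraries labelled Pelo -/- had 226, 195 and 116 CPM in Lrig1, 209, 241 and 228 in Lgr6 and 77.5, 51.4 and 34.2 in Lgr5, again without overlap with Lgr5. Its log2 fold change was 2.81 (SE 0.49, adjusted p = 0.000274) in WT Lrig1 and 2.98 (SE 0.47, adjusted p = 7.19e-05) in WT Lgr6. Eef1g, the subunit that anchors the complex, was also called in all 4, at 232 to 499 CPM in the 11 Lrig1 and Lgr6 libraries and 21.0 to 155 in Lgr5. Eef1b2 was called in WT Lgr6 only, at 1.30 (SE 0.4) on the log2 scale, and its ranges of 599.6 to 981 and 149 to 646 CPM overlapped; the call was lost with RLE size factors, at 0.91 (adjusted p = 0.126), among genes of at least 5 CPM, at 0.55 (adjusted p = 0.212), and in 5 of 6 fits with a library left out.

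The 2 genes for eIF5A went in different directions. Eif5a, the common form, was at 173 and 257 CPM in WT Lrig1, at 94.9, 447 and 383 in WT Lgr6, and at 18.8, 11.8 and 11.8 in WT Lgr5. The Pelo -/- libraries had 172, 128 and 128 CPM in Lrig1, 114, 160 and 188 in Lgr6 and 45.4, 20.5 and 9.81 in Lgr5. No Lgr5 library reached the others, and the log2 fold changes were 3.92 (SE 0.57, adjusted p = 4.37e-05) in WT Lrig1, 4.45 (SE 0.56, adjusted p = 7.66e-06) in WT Lgr6, 2.50 (SE 0.52, adjusted p = 0.0028) in Pelo -/- Lrig1 and 2.61 (SE 0.52, adjusted p = 0.00142) in Pelo -/- Lgr6. Eif5a2, a second form with narrower expression, was at 9.22 and 6.86 CPM in WT Lrig1, at 0.476, 1.81 and 0.827 in WT Lgr6, and at 14.7, 42.1 and 5.84 in WT Lgr5. In Pelo -/- it was at 8.44, 7.89 and 1.94 CPM in Lrig1, 7.89, 4.62 and 5.25 in Lgr6 and 17.4, 19.5 and 27.1 in Lgr5. Eif5a2 was lower in WT Lgr6 than in WT Lgr5 by a log2 fold change of -4.31 (SE 0.81, adjusted p = 0.00052), the only member called lower in the fit of all 30405 genes. It was not called in the other 3, at -1.38 (adjusted p = 0.255) in WT Lrig1, -1.80 (adjusted p = 0.133) in Pelo -/- Lrig1 and -1.85 (adjusted p = 0.112) in Pelo -/- Lgr6; among genes of at least 5 CPM on average it was called lower in both Pelo -/- comparisons, at -2.32 (adjusted p = 0.0176) and -2.40 (adjusted p = 0.0118).

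Eif6, which keeps free large ribosomal subunits from joining small ones, was at 133 and 116 CPM in WT Lrig1, 123, 204 and 166 in WT Lgr6 and 23.5, 23.7 and 15.6 in WT Lgr5. Libraries labelled Pelo -/- had 109, 127 and 105 CPM in Lrig1, 170, 202 and 123 in Lgr6 and 48.8, 40.4 and 17.6 in Lgr5. The Lgr5 libraries lay below all others. The log2 fold change was 2.58 (SE 0.42, adjusted p = 0.000135), 2.97 (SE 0.4, adjusted p = 1.37e-05), 1.68 (SE 0.38, adjusted p = 0.00626) and 2.21 (SE 0.39, adjusted p = 0.000407) in the same order.

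**Figure D2:**
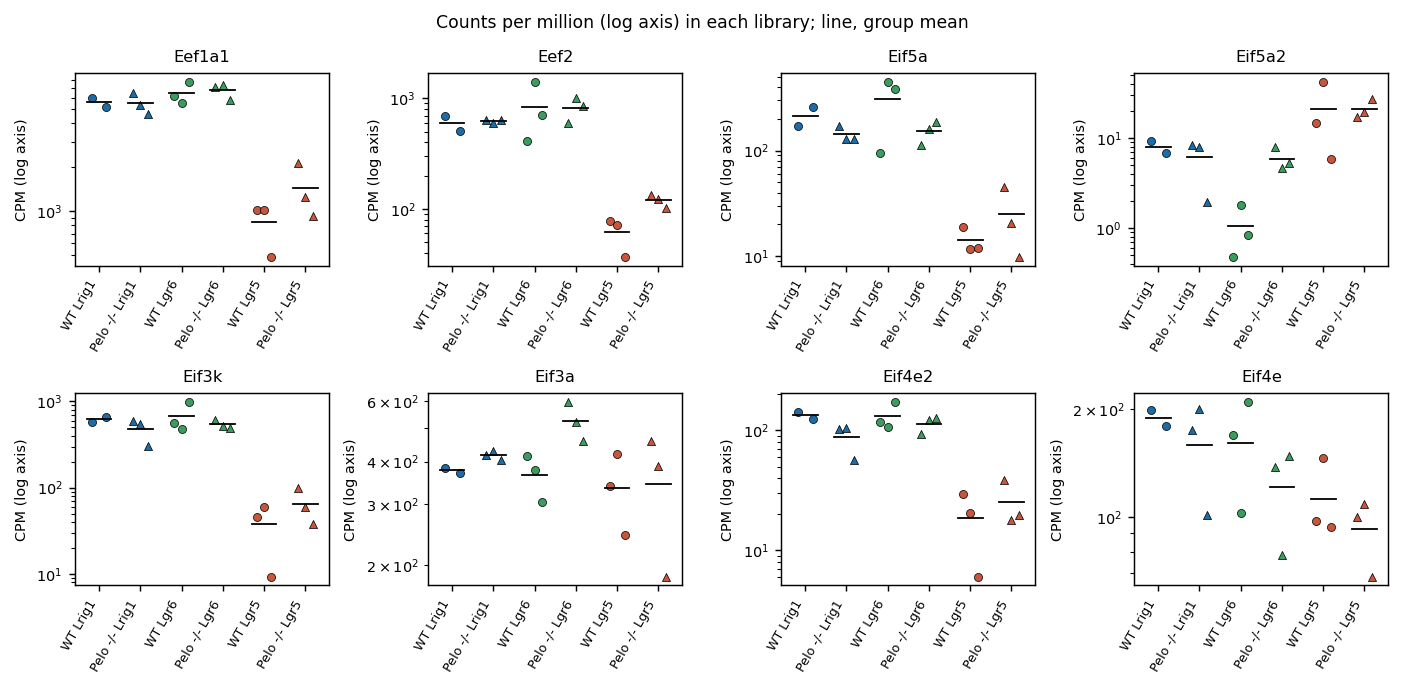
CPM on a log axis (y axis) for Eef1a1, Eef2, Eif5a, Eif5a2, Eif3k, Eif3a, Eif4e2 and Eif4e in each library of the 6 groups (x axis), with circles for WT, triangles for libraries labelled Pelo -/- and a line at the group mean. Eif5a is lower in Lgr5 without overlap, at 9.81 to 45.4 CPM against 94.9 to 447 elsewhere. Eif5a2 tends the other way with overlap, at 5.84 to 42.1 in Lgr5 and 0.476 to 9.22 elsewhere.

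eIF3 was the role with the most calls. Of its 14 genes, 10, 11, 10 and 10 were called higher in the 4 comparisons and 0 lower, with medians of 1.94, 2.01, 1.44 and 1.57 on the log2 scale. In TMM-scaled CPM, for 12 of 14 the 11 Lrig1 and Lgr6 libraries lay wholly above the 6 Lgr5 libraries. The others were Eif3a and Eif3j2. Eif3c, Eif3d, Eif3f, Eif3h, Eif3i, Eif3k and Eif3l were called in all 4. Eif3k, a peripheral subunit, differed most: it was at 578 and 662 CPM in WT Lrig1, at 556, 480 and 991 in WT Lgr6, and at 45.6, 60.2 and 9.28 in WT Lgr5. The Pelo -/- libraries had 592, 547 and 306 CPM in Lrig1, 615, 517 and 498 in Lgr6 and 98.1, 59.5 and 37.7 in Lgr5. WT Lgr5 replicate 3 was the lowest of these, and no Lgr5 library came near the others. The log2 fold change of Eif3k was 4.02 (SE 0.56, adjusted p = 2.65e-05), 4.14 (SE 0.54, adjusted p = 1.13e-05), 2.89 (SE 0.51, adjusted p = 0.000654) and 3.06 (SE 0.52, adjusted p = 0.000276).

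Eif3i, a subunit with a beta-propeller fold, was at 232 and 308 CPM in WT Lrig1, 189, 303 and 439 in WT Lgr6 and 89.5, 66.3 and 53.0 in WT Lgr5. In Pelo -/- it was at 272, 193 and 225 CPM in Lrig1, 208, 219 and 206 in Lgr6 and 84.1, 65.5 and 54.3 in Lgr5. Its difference was smaller than that of Eif3k but as regular over libraries, with a log2 fold change of 1.76 (SE 0.36, adjusted p = 0.00244) in Pelo -/- Lrig1. Eif3a, the largest subunit and part of the core, was at 305 to 598 CPM in the Lrig1 and Lgr6 libraries and 185 to 458 in Lgr5, and was called in none of the comparisons, at 0.17 (SE 0.38), 0.13 (SE 0.34), 0.28 (SE 0.34) and 0.61 (SE 0.35) on the log2 scale, with a sign that turned under other scalings in all but Pelo -/- Lgr6. Exons of Eif3d overlap those of the antisense gene Gm17638 over 43.3% of their length, and Eif3j1 and Eif3j2 are near-identical copies, so counts of these 3 are less certain. Per kilobase, the median eIF3 gene was at 48.4 to 58.0 CPM per kb in each Lrig1 or Lgr6 library and at 8.87 to 23.5 in each Lgr5 library. The spread among the 14 genes within a library did not separate the populations, with an SD of log2 CPM per kb of 1.00 to 1.47 in the former and 0.95 to 1.42 in the latter.

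**Figure D3:**
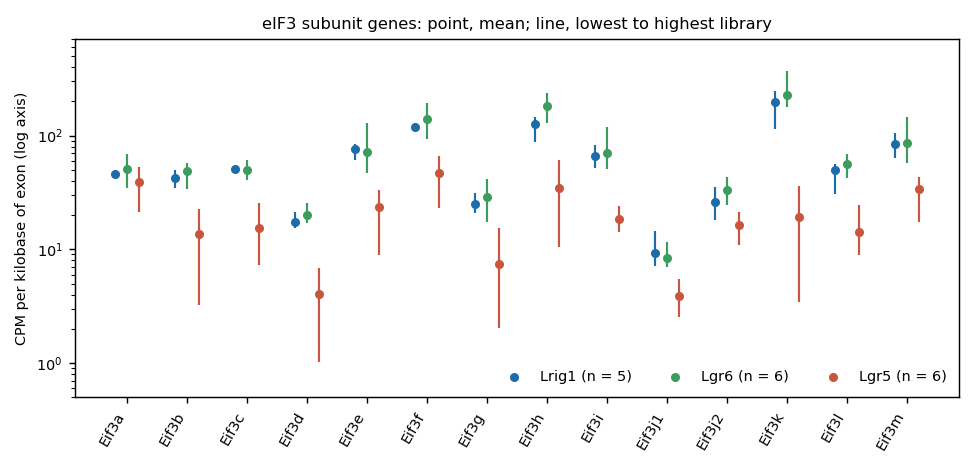
Level of the 14 eIF3 subunit genes (x axis) in CPM per kb of exon on a log axis (y axis), with a point at the mean and a line from the lowest to the highest library for Lrig1 (n = 5), Lgr6 (n = 6) and Lgr5 (n = 6). The Lrig1 and Lgr6 points lie close together for every gene, and the Lgr5 lines lie below them except for Eif3a and Eif3j2, where they overlap.

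For eIF2 and its relatives, 3, 4, 1 and 2 of 6 genes were called higher. Eif2s1, which encodes the alpha subunit whose phosphorylation slows initiation, was at 222 and 240 CPM in WT Lrig1, 223, 95.0 and 274.3 in WT Lgr6 and 47.0, 56.3 and 2.68 in WT Lgr5. Libraries labelled Pelo -/- had 203, 203 and 147 CPM in Lrig1, 209, 125 and 258 in Lgr6 and 27.4, 104 and 59.2 in Lgr5. Within each genotype the Lgr5 libraries were the lowest in TMM-scaled CPM. It was called in both WT comparisons, at 2.71 (SE 0.74, adjusted p = 0.0208) and 2.48 (SE 0.7, adjusted p = 0.0215), and in neither Pelo -/- comparison, at 1.53 and 1.63; each WT call was lost without the low-count filter, with only the groups compared in the fit, and on leaving out either of 2 libraries of the Lrig1 or Lgr6 group. Eif2s3x, the X-linked gene of the gamma subunit, was at 148 and 153 CPM in WT Lrig1, 210, 117 and 232 in WT Lgr6 and 57.4, 94.0 and 35.9 in WT Lgr5, and at 148, 136 and 124, at 195, 186 and 129, and at 77.5, 41.1 and 93.3 CPM in the Pelo -/- groups in that order. The Lgr5 libraries were the lowest in TMM-scaled CPM, though not as a share of all counts. WT Lgr5 replicate 2 had 1468 of 11261870 counts and WT Lrig1 replicate 1 had 2471 of 21694454, the smaller share. Eif2s3x was called in Lgr6 of both genotypes, at 1.58 (SE 0.4, adjusted p = 0.00772) in WT and 1.27 (SE 0.39) in Pelo -/-. The WT call was lost in 3 and the Pelo -/- call in 4 of 6 fits with a library left out, and the latter also with RLE size factors, at 1.10 (adjusted p = 0.072).

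Eif2s3y, the Y-linked copy of the gamma subunit gene, had a count of 0 in 6 of 17 libraries, which allows at most 0.145 to 0.187 CPM in these libraries (3 counts, counting error only). These were WT Lrig1 replicate 2, WT Lgr6 replicates 1 and 3, Pelo -/- Lgr6 replicate 2, WT Lgr5 replicate 3 and Pelo -/- Lgr5 replicate 3. In the other 11 it was at 92.8 to 241 CPM. The same 6 had 46.4 to 175 CPM of Xist, the transcript of the inactive X chromosome, against 0.218 to 17.2 in the rest. The labels give no sex, and both kinds of library occur in 5 of the 6 groups; all 3 Pelo -/- Lrig1 libraries had Eif2s3y counts. Its tests, with SEs of 2.9 to 3.18 in the 4 comparisons, are accordingly wide.

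eIF2B, the exchange factor of eIF2, gave 2, 2, 1 and 2 calls of 5. Eif2b5, its catalytic subunit, was at 38.4 and 37.0 CPM in WT Lrig1, 65.0, 59.9 and 34.6 in WT Lgr6 and 20.9, 21.7 and 10.5 in WT Lgr5. The Pelo -/- libraries had 39.9, 37.4 and 40.0 CPM in Lrig1, 66.1, 95.7 and 39.7 in Lgr6 and 11.4, 1.84 and 17.1 in Lgr5. Every Lgr5 library was the lower in TMM-scaled CPM, though not as a share of all counts. WT Lgr5 replicate 2 had 339 of 11261870 counts and WT Lrig1 replicate 2 had 767 of 26827421, the smaller share. Eif2b5 was called in Pelo -/- Lgr6 at 2.73 (SE 0.57, adjusted p = 0.00203) and in Pelo -/- Lrig1 at 1.95 (SE 0.55), the latter lost in 4 of 6 fits with a library left out, while the WT values were 1.09 (SE 0.59) and 1.59 (SE 0.54) without a call. Eif2b1 and Eif2b3 were called in both WT comparisons, and Eif2b4 in none.

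The cap-binding and helicase factors gave fewer calls: 1, 2, 2 and 2 of 8 genes of eIF4E and eIF4G, and 2, 1, 0 and 0 of 5 genes of eIF4A, eIF4B and eIF4H. Among all genes of at least 5 CPM, 15.8, 17.5, 12.2 and 14.4% were called higher. Eif4e, the cap-binding protein itself, was at 78.1 to 209 CPM in the 11 Lrig1 and Lgr6 libraries and 68.2 to 146 in Lgr5 and was called in none. Its relative Eif4e2 (4EHP), which binds the cap but not eIF4G and represses translation, was called in all 4. It was at 144 and 125 CPM in WT Lrig1, 117, 107 and 174 in WT Lgr6 and 29.6, 20.4 and 6.01 in WT Lgr5. In Pelo -/- it was at 102, 105 and 56.3 CPM in Lrig1, 93.5, 122 and 127 in Lgr6 and 38.3, 17.99 and 19.8 in Lgr5, without overlap with Lgr5. Its log2 fold changes were 2.85 (SE 0.5, adjusted p = 0.000328) in WT Lrig1 and 2.83 (SE 0.48, adjusted p = 0.000165) in WT Lgr6, then 1.79 (SE 0.46) and 2.17 (SE 0.47) in Pelo -/-. The scaffolds Eif4g1 (20.7 to 57.3 against 10.6 to 41.4 CPM) and Eif4g2 (578 to 797 against 234 to 736 CPM) overlapped between the Lgr5 libraries and the others and were called in none.

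Eif4a1, the more common form of the cap helicase in most tissues though not in these libraries, was at 251 and 257 CPM in WT Lrig1. It was at 196, 197 and 184 CPM in WT Lgr6 and at 42.3, 125 and 8.85 in WT Lgr5. Libraries labelled Pelo -/- had 219, 213 and 176 CPM in Lrig1, 220, 124 and 222 in Lgr6 and 108, 41.1 and 50.02 in Lgr5. The lowest Lrig1 or Lgr6 library and the highest Lgr5 library met at 124.5 and 125.1 CPM, and Eif4a1 was called in WT Lrig1 alone, at 2.11 (SE 0.62, adjusted p = 0.0271), with 1.71 (SE 0.57, adjusted p = 0.052) in WT Lgr6. The WT Lrig1 value ran from 1.58 without WT Lgr5 replicate 3 to 3.40 without WT Lgr5 replicate 2, and the call was lost in 4 of 5 fits with a library left out. Eif4a2 lay at 255 to 464 CPM in Lrig1 and Lgr6 and at 250 to 565 in Lgr5, with log2 differences of 0.24, 0.04, -0.09 and -0.42.

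Among the scanning and subunit-joining factors 1, 2, 1 and 2 of 7 were called, against 15.8, 17.5, 12.2 and 14.4% of all genes of at least 5 CPM called higher. Eif1ad, a protein with an eIF1A-like domain, was called in all 4 and ranged from 24.0 to 52.3 CPM in Lrig1 and Lgr6 against 1.49 to 9.42 in Lgr5. Its log2 fold change was 3.02 (SE 0.6) in WT Lrig1 and 3.53 (SE 0.59) in WT Lgr6; its exons overlap those of Banf1 over 15.3% of their length. Eif5 and Eif5b were called in none. The release factors gave 1, 2, 0 and 0 calls of 3. Etf1, the stop-codon reader, was at 149 and 220 CPM in WT Lrig1, 160, 158 and 147 in WT Lgr6 and 93.9, 63.1 and 77.5 in WT Lgr5, and at 171, 164 and 184, at 250.1, 146 and 169, and at 109, 94.1 and 81.3 CPM in the Pelo -/- groups. In TMM-scaled CPM its Lgr5 libraries were all the lower. As a share of all counts they were not: WT Lgr5 replicate 3 had 1420 of 9647507 counts and WT Lrig1 replicate 1 had 2491 of 21694454, the smaller share. The log2 fold change of Etf1 was 1.24 (SE 0.36, adjusted p = 0.0243) in WT Lrig1 and 0.99 (SE 0.33, adjusted p = 0.0495) in WT Lgr6. These calls were fragile: with RLE size factors Etf1 came to 0.93 (adjusted p = 0.0979) and 0.53 (adjusted p = 0.284), among genes of at least 5 CPM to 0.38 (adjusted p = 0.416) and 0.10 (adjusted p = 0.825), and they were lost in 4 of 5 and 6 of 6 fits with a library left out, the value in WT Lrig1 running from 0.85 without WT Lrig1 replicate 2 to 1.65 without WT Lrig1 replicate 1. Gspt1, its GTPase partner, was called in WT Lgr6 at 1.17 (SE 0.37, adjusted p = 0.0358), with 71.1 to 128 CPM against 23.3 to 63.7 in Lgr5; it was lost with RLE size factors, at 0.77 (adjusted p = 0.157), at a mean of at least 5 CPM, at 0.42 (adjusted p = 0.253), and in 5 of 6 fits with a library left out. Gspt2, an intronless copy, was at most 3.67 CPM in every library and called in none; its count of 0 in Pelo -/- Lrig1 replicate 3 allows up to 0.233 CPM. Of the 5 genes for methyltransferases and the selenocysteine factor, 2, 3, 1 and 1 were called, led by Eef2kmt at 3.09 (SE 0.79) and 3.28 (SE 0.76) in the WT comparisons and Eefsec, which delivers selenocysteine tRNA, at 2.45 (SE 0.73), 2.61 (SE 0.74) and 2.39 (SE 0.73) in all but WT Lrig1. Each Eefsec call was lost in 4 of 6 fits with a library left out, and with RLE size factors those in WT Lgr6 and Pelo -/- Lgr6 were lost too, at 2.01 (adjusted p = 0.0707) and 2.19 (adjusted p = 0.0517).

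Across the 4 comparisons, 15 members were called higher in all, 5 in 3, 14 in 2, 7 in 1 and 23 in none; Eif5a2, called lower once, is among the 23. The WT and Pelo -/- comparisons, which share no library, had 16 calls in common for Lrig1 (55.2% of the WT calls and 72.7% of the Pelo -/- calls) and 20 for Lgr6 (58.8 and 80.0%). The value was above 0 in both genotypes for 51 and 53 of 64 members.

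Ratios between related genes within a library do not depend on the scaling. These pairs were chosen after the values were seen, so the ratios are a description. Eef2 stood to Eef2k per kilobase at 15.6 to 43.6 in the 11 Lrig1 and Lgr6 libraries and at 3.01 to 7.16 in the 6 Lgr5 libraries. Eif5a stood to Eif5a2 at 30.6 to 979 and at 0.591 to 5.54, so that some Lgr5 libraries held more of the second form. The WT Lgr6 libraries were the highest, at 421 to 979. Eif4a1 stood to Eif4a2 at 0.489 to 0.934 and at 0.0436 to 0.327, so Eif4a2 was the more abundant form in every library. Eif3k stood to Eif3a at 2.46 to 10.5 and at 0.123 to 0.693. Eif4e stood to Eif4e2 at 0.801 to 2.37 and at 3.25 to 19.5, the one pair of these whose ratio was higher in Lgr5. By contrast, the ratios of Eif4g1 to Eif4g2 (0.0411 to 0.125 and 0.0226 to 0.147), Eif1a to Eif1ax (0.489 to 1.11 and 0.339 to 0.76) and Gspt1 to Etf1 (0.221 to 0.438 and 0.205 to 0.595) overlapped.

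**Figure D4:**
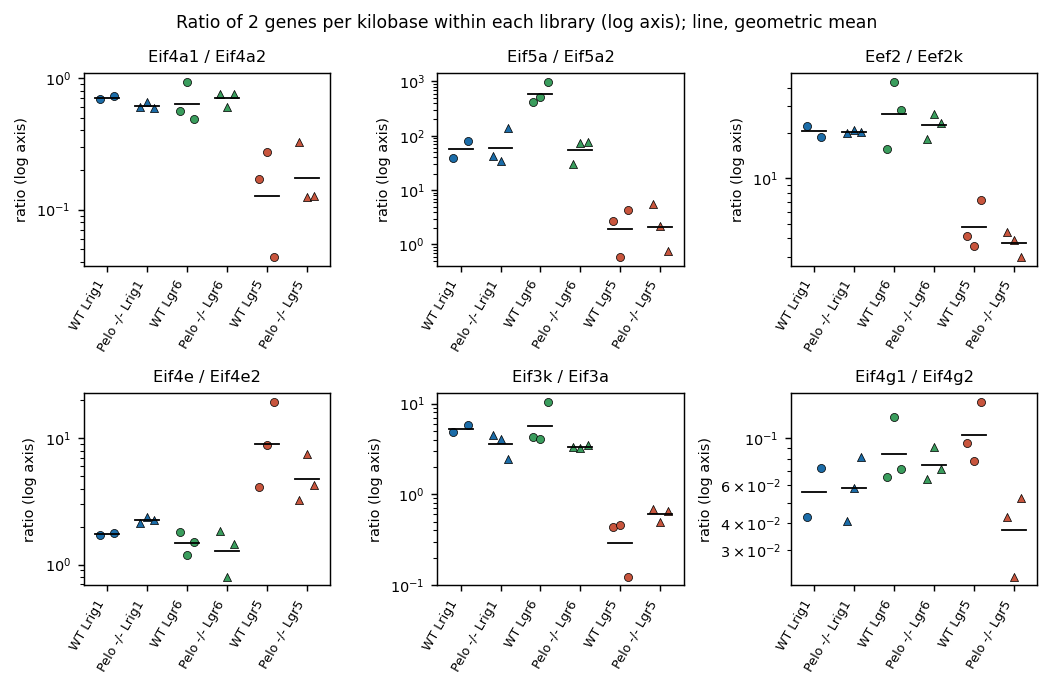
Ratio of the levels per kb of exon of 2 related members within each library (y axis, log scale) in the 6 groups (x axis), for Eif4a1/Eif4a2, Eif5a/Eif5a2, Eef2/Eef2k, Eif4e/Eif4e2, Eif3k/Eif3a and Eif4g1/Eif4g2, with a line at the geometric mean. The Lgr5 libraries are separate from the others in the first 5 pairs, above them only for Eif4e/Eif4e2 (3.25 to 19.5 against 0.801 to 2.37), and overlap them for Eif4g1/Eif4g2.

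Between Lrig1 and Lgr6 cells no difference in these genes passed the edgeR test. In WT Lrig1 against WT Lgr6 0 of 64 members were called (0.0% of all genes in either direction), with a median of -0.09 against -0.34 over all genes, and 1 member against 4.67% of all genes had an unadjusted p under 0.05. That member was Eif5a2, at a log2 fold change of 2.94 (SE 0.81, adjusted p = 1.0); limma-voom called 0 members and DESeq2 called this one, at 3.10 with an adjusted p of 0.0216. The next values upward were Eef1e1 at 0.63 and Eef1akmt2 at 0.75, and downward Eif2b4 at -0.94, Eif3h at -0.67 and Eef2 at -0.50, the last turning to 0.10 without WT Lgr6 replicate 2. In Pelo -/- Lrig1 against Pelo -/- Lgr6 0 members were called by edgeR, DESeq2 or limma-voom (0.0% of all genes by edgeR), with a median of -0.19 against -0.06 over all genes. There 0 members had an unadjusted p under 0.05, against 4.2% of all genes, and the values lowest in p were Eif5 at 0.35, Eif4e at 0.39 and Eif4a2 at 0.33 upward and Eif2b5 at -0.78, Eif6 at -0.53 and Eif4h at -0.45 downward.

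Loss of Pelo, as labelled, was compared with WT within each population, asking whether the level of the general translation factors moves when a ribosome rescue factor is targeted. In all 3 populations 0 members were called by edgeR, DESeq2 or limma-voom. In Lrig1 and Lgr6 0.0% of all genes were called as well; in Lgr5 6 genes (0.0197%) were, all higher, though DESeq2 called 79 higher and 95 lower there, limma-voom 0, and edgeR without the low-count filter 52 higher and 28 lower. The member median was -0.11 in Lrig1, -0.02 in Lgr6 and 0.30 in Lgr5, against -0.02, -0.27 and -0.14 over all genes, and the Lgr5 median was 0.04 without WT Lgr5 replicate 3. At an unadjusted p under 0.05 there were 0, 1 and 4 members, against 3.64, 3.88 and 6.25% of all genes.

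**Figure D5:**
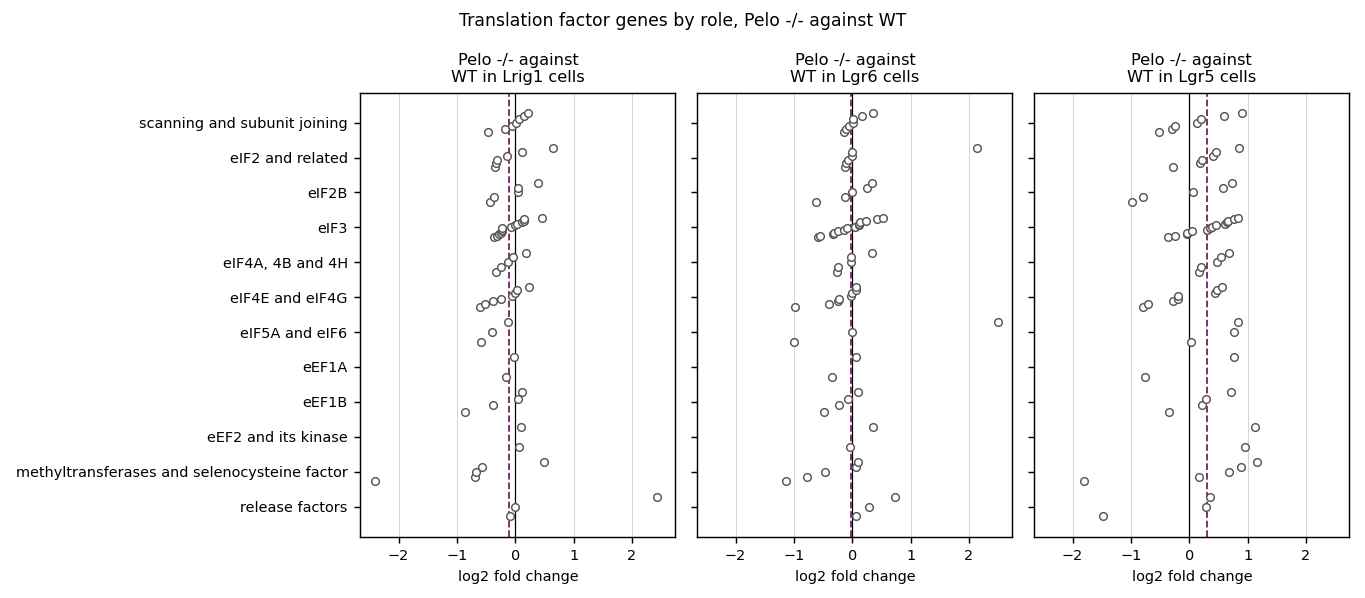
Log2 fold change of each of the 64 members (x axis) by role (y axis) for libraries labelled Pelo -/- against WT in Lrig1, Lgr6 and Lgr5 cells. Each circle is 1 gene, all are open because none had an adjusted p under 0.05, and the dashed lines mark the member medians of -0.11, -0.02 and 0.30.

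In Lrig1 the members with the smallest p were Gspt2 at 2.43 (SE 1.65), Eefsec at 0.50 and Eif3j1 at 0.45 upward, and Eef1akmt3 at -2.41 (SE 1.28), Eef1e1 at -0.86 (SE 0.5) and Eef1akmt1 at -0.67 (SE 0.51) downward, each with an adjusted p of 1.0. Gspt2 rested on Pelo -/- Lrig1 replicate 2, at 3.67 CPM against 0.435 and 0 in the other 2 and 0.359 and 0.145 in WT. Its value was -0.13 without that library. Likewise Eef1akmt3 rested on WT Lrig1 replicate 2, at 4.64 CPM against 0.778 in the other WT library, and was -0.48 without it. The abundant factors lay close to WT in these cells: Eef1a1 averaged 5580 ± 578 CPM (SD, n = 2) in WT and 5491 ± 955 (SD, n = 3) in Pelo -/-, and Eef2 598 ± 134 (SD, n = 2) and 625 ± 24.4 (SD, n = 3).

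In Lgr6 Eif5a2 had the smallest p, at a log2 fold change of 2.50 (SE 0.76) with an unadjusted p of 0.00284 and an adjusted p of 1.0. Its 3 Pelo -/- libraries, at 4.62 to 7.89 CPM, lay above the 3 WT libraries, at 0.476 to 1.81 CPM, as did those of 2.49% of all genes. Eif5a pointed the other way, at -1.0 (SE 0.49) with an adjusted p of 1.0, and averaged 308 ± 188 CPM (SD, n = 3) in WT and 154 ± 37.1 (SD, n = 3) in Pelo -/-, with overlapping libraries. The remaining leading values were Eif3a at 0.52 and Eif3f at 0.43 upward and Eef2kmt at -1.13 and Eef1akmt1 at -0.78 downward, the last becoming 0.10 without WT Lgr6 replicate 3.

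In Lgr5 the leading values upward were Eef2k at 1.12 (SE 0.4, adjusted p = 0.595), Eef2 at 0.95 (SE 0.39, adjusted p = 0.703) and Eif3c at 0.83 (SE 0.36, adjusted p = 0.736). Eef2 averaged 62.2 ± 22.2 CPM (SD, n = 3) in WT and 119.9 ± 16.6 (SD, n = 3) in Pelo -/-, and the groups of both Eef2 and Eef2k did not overlap, which held for 3.8% of all genes in this direction. Downward they were Eif2b4 at -0.98, Eif4g1 at -0.80 and Eef1akmt3 at -1.80, with adjusted p-values of 0.881, 0.864 and 0.955. Eef1akmt3 rested on WT Lgr5 replicate 2, at 5.06 CPM against 0.675 and 0.765 in the other 2, and was -0.28 without it.

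Whether the Pelo effect differed between populations was tested directly. No member was called in any of the 3 differences (0 of 64 by edgeR, DESeq2 and limma-voom; 0.0% of all genes by edgeR), with medians of -0.49 for Lrig1 minus Lgr5, -0.34 for Lgr6 minus Lgr5 and -0.06 for Lrig1 minus Lgr6, against 0.06, -0.25 and 0.25 over all genes. At an unadjusted p under 0.05 there were 1, 4 and 1 members, against 5.31, 4.78 and 4.2% of all genes. For Lgr6 minus Lgr5 the lowest p downward belonged to Eif5a, at -1.84 (SE 0.7, adjusted p = 0.908), and upward to Eif5a2, at 2.47 (adjusted p = 0.976). For Lrig1 minus Lgr5 they were Eef1akmt1 at -1.55 (adjusted p = 0.924), Eif5a at -1.42 (adjusted p = 0.933) and Gspt2 at 3.90, and for Lrig1 minus Lgr6 Eif5a2 at -2.89 (SE 1.07, adjusted p = 1.0) and Eif2b4 at 1.01. The smaller counts of members called between populations in Pelo -/- than in WT are therefore not shown to be a difference between genotypes.

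Genes that act on these factors were read from 5 lists outside the members. Over all genes, 9.09, 10.6, 5.77 and 7.23% were called higher in WT Lrig1, WT Lgr6, Pelo -/- Lrig1 and Pelo -/- Lgr6 against Lgr5. Called lower were 1.99, 1.57, 2.08 and 2.72%. In lists this short, a single call is not read as a result about the list. Of 6 eIF2 kinases and phosphatase subunits, 1, 1, 0 and 1 were called higher in WT Lrig1, WT Lgr6, Pelo -/- Lrig1 and Pelo -/- Lgr6 against Lgr5, each time Ppp1r15a (GADD34), the stress-induced subunit that directs dephosphorylation of eIF2. Its log2 fold change was 4.40 (SE 0.67, adjusted p = 8.03e-05), 4.96 (SE 0.66, adjusted p = 1.52e-05) and 2.05 (SE 0.58, adjusted p = 0.0236) in the 3 comparisons with a call. Of 12 cap-complex regulators tested, 3, 1, 0 and 1 were called higher: Pdcd4, an inhibitor of eIF4A, at 1.68, Paip1 at 1.34 and Paip2 at 1.32 in WT Lrig1, Paip2 at 1.04 in WT Lgr6, and the eIF4E inhibitor Eif4ebp2 at 3.45 in Pelo -/- Lgr6. Of 7 recycling and rescue genes, 1, 2, 1 and 1 were called higher. Denr, which takes part in recycling and reinitiation, was called in all 4, at 1.76, 1.96, 1.98 and 2.25, and Gtpbp1 in WT Lgr6 at 2.29. Pelo itself was called lower in Pelo -/- Lrig1 than in Pelo -/- Lgr5, at -3.28 (adjusted p = 0.0115). Of 9 genes that make diphthamide on eEF2 or hypusine on eIF5A, Dhps was called in WT Lgr6 at 2.47 and none elsewhere. Of 10 mitochondrial translation factors 1 was called in each comparison, Mrrf at 2.63 and 2.53 in WT and Gfm1 at 1.96 and 1.60 in Pelo -/-. In the Pelo comparisons, their differences and Lrig1 against Lgr6, 0 genes of these lists were called.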

How the data were processed

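RNA from sorted GFP+ epidermal cells was measured in 17 libraries made with a full-length cDNA method, per the labels' protocols. The authors deposited a table of raw read counts per gene, and the submitters' processing notes name STAR, edgeR, GRCm38 and mm10. For the counting tool, annotation version, strand setting and treatment of shared reads, nothing is stated in the labels or the file header. Gene identifiers were matched to a GRCm38 annotation (40692 of 48820 with version, 48144 without, 676 unmatched); the member Eef1akmt4 of that annotation is not analysed here, and 26 members share exon sequence with another gene. Exon lengths for levels per kilobase came from the same annotation.

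Deposited counts were tested with edgeR 4.0.16 (quasi-likelihood, robust; TMM; filterByExpr with a minimum count of 10 and minimum total of 15; R 4.3.3) in 1 fit of all 17 libraries with 1 coefficient per group and no covariates, giving 30405 genes tested, a common dispersion of 0.537 and 12 comparisons. P-values were adjusted by Benjamini-Hochberg over all genes tested, and genes under 0.05 were called. The SE of a log2 fold change is its size divided by the square root of F. The spread between replicates exceeded counting noise (chi-square per degree of freedom 38.5 to 193 between replicate pairs), so none was treated as a duplicate. Limits from a count of 0 use 3 counts.

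Members described by library were the 6 per direction with the smallest p among those called, or the 3 with the smallest p per direction where none was, and a list read in every comparison: Eef1a1, Eef1a2, Eef2, Eef2k, Eif4e, Eif4a1, Eif4a2, Eif4g1, Eif4g2, Eif5a, Eif5a2, Eif2s1, Eif2s3x, Eif2s3y, Etf1, Gspt1 and Gspt2. Other members named in the text illustrate their role group and were chosen after their values were seen. The members, roles, pathway lists and markers were chosen with earlier results of these data known. The test was checked on simulated counts of the Pelo -/- against WT comparison in Lgr6 (30405 genes), with 50 genes changed at each size. It called 0% of genes changed 2-fold, 12% of those changed 4-fold, 70% of those changed 8-fold and 100% of those changed 16-fold. It also made 4 false calls. These shares describe the simulated counts only. The simulated dispersion was set below the common dispersion of 0.537 found in these libraries, and no gene of low count was changed. The shares may therefore overstate what the test would call here. Alternatives were RLE size factors, DESeq2 1.42.0, limma-voom (limma 3.58.1), no low-count filter, a mean of at least 5 CPM, protein-coding genes only, a fit of only the groups compared, the replicate number as a block, and leaving out each library.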

Additional observations from a re-analysis of the deposited data

How the results depend on the processing

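The direction of every called member in the 4 comparisons with Lgr5 stayed the same under all alternatives, but the counts did not. Leaving out 1 library gave 14 to 31 calls in WT Lrig1 against WT Lgr5 (29 with all), 17 to 32 in WT Lgr6 (35), 9 to 21 in Pelo -/- Lrig1 (22) and 17 to 26 in Pelo -/- Lgr6 (25), and 0 to 0 in the other 8 comparisons. Calls that held without each library in turn numbered 13 of 29, 16 of 35, 6 of 22 and 15 of 25; the 6 were Eef2, Eif3k, Eef1a1, Eif3i, Eif5a and Eif6. Fitting only the groups compared gave 17 calls in WT Lrig1 and 18 in WT Lgr6, a fit with fewer libraries. RLE size factors gave 25, 28, 19 and 20 calls and limma-voom 37, 40, 23 and 29. DESeq2 gave 1 call in WT Lrig1 against WT Lgr6 (Eif5a2). The share of higher among all genes called was 82.1, 87.2, 73.5 and 72.6%, became 69.1, 68.8, 66.2 and 63.5% with RLE size factors, 38.9, 48.7, 51.2 and 51.1% with DESeq2, and 55.3, 52.9, 53.2 and 50.7% at a mean of at least 5 CPM; the all-gene medians were -1.36, -1.0, -0.75 and -0.77 with RLE size factors. For uncalled values, sign changes were checked only for the 3 members with the smallest p per direction where none was called. Among these, over libraries left out in turn, 5 values changed sign: Gspt2 in Pelo -/- Lrig1 against WT (-0.13 without Pelo -/- Lrig1 replicate 2, up to 3.17) and in the Lrig1 minus Lgr6 difference (-0.86 without the same library, up to 3.67), Eef1akmt3 in that difference (-2.95 to 0.82, the latter without Pelo -/- Lgr6 replicate 1), Eef1akmt1 in Pelo -/- Lgr6 against WT (-1.05 to 0.10, the latter without WT Lgr6 replicate 3) and Eef2 in WT Lrig1 against WT Lgr6 (-0.82 to 0.10, the latter without WT Lgr6 replicate 2). The cause of these changes was not tested. Libraries with the same replicate number did not deviate together (correlations of -0.237 to 0.24 over 24 pairs), and a replicate block gave 28, 37, 22 and 25 calls and 0 elsewhere. Depth was 9647507 to 28098841 counts per library, and replicates differed by more than counting noise, so precision at the abundant members is set by the spread between libraries.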
